A study of Homo sapiens with 10 samples.

Results

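Acetylation of histone H3 at lysine 27 (H3K27ac) was compared between persister cells that received the bromodomain inhibitor AZD5153 and persister cells that did not. The comparison took 6 of the 10 samples of the series, chosen by their titles, namely the 3 libraries of osimertinib DTP + AZD5153 (here combo) against the 3 libraries of osimertinib DTP (here DTP). All were made by chromatin immunoprecipitation and sequencing (ChIP-seq) from cells of the human lung adenocarcinoma line H1975, an established line with an activated mutant EGFR. DTP cells (drug-tolerant persisters) were held for 24 days in osimertinib, an inhibitor of mutant EGFR, at 500 nM. Combo cells had osimertinib at 500 nM for 21 days and then AZD5153 at 150 nM for 3 days, and the labels do not say whether osimertinib went on during these last days. Both groups thus shared the cell line, the EGFR mutation it carries and at least 21 days of osimertinib. DMSO cells, kept drug-free for 21 days and in DMSO for 3 days, gave 3 more libraries that entered the fits only for the estimate of the spread, and 1 pooled input library held chromatin that was not immunoprecipitated. The replicates were biological, per the labels, but all of them came from 1 cell line. No spike-in was named, so that every value is relative to the rest of its library, and more acetylated cells cannot be told apart from more acetylation per cell.

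BET proteins bind acetylated lysines of histones through paired bromodomains and bring the elongation factor P-TEFb to promoters and enhancers. AZD5153 is a bivalent inhibitor of BET bromodomains. H3K27ac itself is written by the acetyltransferases p300 and CBP, and marks active promoters and enhancers. Persister cells survive an inhibitor without a resistance mutation, in a state that is known to be reversible and to depend on chromatin.

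Counts were given for 169637 regions, of which 67387 carried a gene symbol and an annotation class. Total counts ranged from 8850409 to 9265614 in DTP and were 10064505, 9505197 and 6263443 in combo replicates 1, 2 and 3. Combo replicate 3 stood apart. Its Spearman correlation across regions was 0.430 and 0.354 with combo replicates 1 and 2, which correlated at 0.890 with each other, and was 0.466 to 0.587 with the DTP libraries. It had 9139 regions without a read, against 194 to 3159 in the other 5 libraries. It also drew 66.7% of its annotated counts from promoters within 1 kb of a transcription start site (TSS), whereas combo replicates 1 and 2 drew 42.2% and 40.3%, and the DTP libraries 45.9%, 59.8% and 40.7%. All results are therefore given with all libraries and without combo replicate 3. Markers of the labelled cell type were present: all 7 epithelial markers (KRT7, KRT8, KRT18, KRT19, EPCAM, CDH1 and MUC1) had regions, with summed signals of 1385 to 2246 CPM (counts scaled to a common library total) in DTP and 1386 to 1726 in combo. Of the 6 haematopoietic markers, 1 (CD68) had regions, at 27.4 to 41.8 CPM, and the other markers of that list, PTPRC among them, had none. All 5 endothelial markers had regions, with sums of 242 to 447 CPM in DTP and 153 to 518 CPM in combo, and so had 5 of the 6 fibroblast markers, with 271 to 366 CPM and 348 to 483 CPM.

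**Figure D1:**
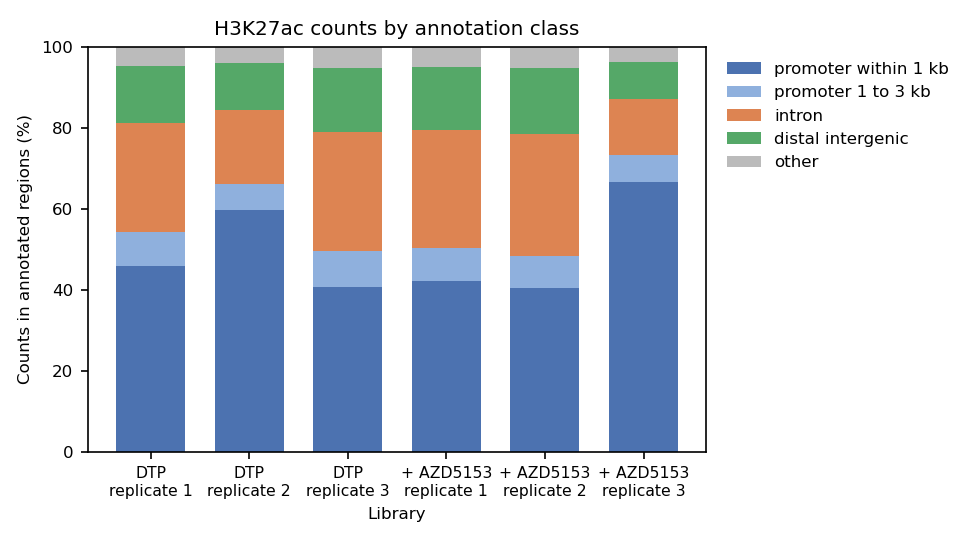
Stacked bars show the share of the counts in annotated regions (y axis, percent, from 0) that fell into each annotation class, for each of the 3 DTP and 3 combo libraries (x axis). Promoters within 1 kb took 66.7% of the counts in combo replicate 3 and 40.3% to 59.8% in the other 5 libraries.

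Which regions gained or lost H3K27ac when AZD5153 was added depended on combo replicate 3. With all libraries, 0 of 157919 regions passed the test (edgeR quasi-likelihood test, Benjamini-Hochberg adjusted p under 0.05), and 7013 had an unadjusted p under 0.05, of which 2519 were higher and 4494 lower in combo. DESeq2 called 18 higher and 68 lower, and limma voom with library quality weights called 2965 and 2824. Without combo replicate 3, edgeR called 103 regions higher (0.0637% of 161758 tested) and 95 lower (0.0587%), in 92 and 80 loci once regions within 1000 bp were merged. The split between rises and falls moved with the scaling: in place of TMM (scaling by a trimmed mean of the ratios between libraries), it was 14 higher and 45 lower by library size alone, and 1119 and 592 with a loess offset, a curve that follows the ratio along the signal. The calls also needed the shared spread, since a fit without the DMSO libraries called 0 in either direction. Leaving out a second library beside combo replicate 3 gave 0 to 1828 rises and 0 to 1587 falls, with 0 when it was combo replicate 1 or any DMSO library and the most when it was DTP replicate 2. Over all tested regions, the log2 fold change had a median of 0.06 with all libraries and −0.17 without combo replicate 3, and was 0.22 and −0.04 with the loess offset.

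Falls were also seen in combo replicate 3, and rises mostly were not. Of the 95 lower regions, 95 were negative with all libraries and 74 had an unadjusted p under 0.05 there. Their median log2 fold change was −3.39 without combo replicate 3 and −2.88 with it. In combo replicate 3 alone, 78 of them (82.1%) lay below the DTP mean, as did 56.4% of all regions. In 59 of them, all 3 combo libraries lay below all 3 DTP libraries, a pattern found in 5.4% of all regions. Of the 103 higher regions, 92 were tested with all libraries, 92 were positive and 91 had an unadjusted p under 0.05, and their median went from 2.64 to 2.12. Combo replicate 3 lay above the DTP mean in 41 of these 92 (44.6%), close to the 43.6% of all regions, and above every DTP library together with the other combo libraries in 26, against 2.83% of all regions. The calls themselves used the DTP libraries and combo replicates 1 and 2, so that only combo replicate 3 was free to differ in these counts.

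Peaks called by the authors in single libraries came from the same libraries as the counts. Overlap in DTP and combo replicates 1 and 2 was thus largely set by the calls, and no share over all regions was taken. Of the 95 lower regions, 84 overlapped a peak in all 3 DTP libraries, and 74 had peaks in all DTP libraries and none in combo replicates 1 and 2. In combo replicate 3, 42 of them had a peak, whereas 2 had a peak in both combo replicates 1 and 2. Of the 103 higher regions, 101 overlapped a peak in both combo replicates 1 and 2, 63 of them with no peak in any DTP library, and 17 overlapped one in combo replicate 3. The pooled input had a median of 10 counts over all regions, 10 over the higher and 9 over the lower ones, and at most 27 and 30, so that neither set stood on high input.

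Some of the 95 called falls, which lay in 80 loci, gathered in long runs near centromeres and repeated genes. A run was taken as at least 3 called regions with gaps of at most 100 kb, a rule made after the values were seen, and is described without a test. The longest lay on the X chromosome at chrX:58101890-58251587, near the centromere, where RefSeq lists no gene and no region carried an annotation. All 68 of its tested regions were negative without combo replicate 3, and 15 of them were called. All 56 tested with every library were negative as well, 54 of them with an unadjusted p under 0.05, and in 47 regions the combo libraries lay below all DTP libraries. The summed signal of these 56 regions was 232, 461 and 610 CPM in DTP and 45.0, 138 and 15.8 CPM in combo replicates 1, 2 and 3. DMSO libraries had 19.3, 47.3 and 23.8 CPM there. Signal at this run was thus high in every DTP library, and in combo replicates 1 and 3 it was within the DMSO range or below it. Its median log2 fold change was −3.36 without combo replicate 3 and −3.64 with it. DESeq2 and voom with quality weights, which kept all libraries, called 18 and 49 of its regions lower.

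A second run of the same kind lay beside the centromere of chromosome 19, at chr19:27656884-27763699, and took in the long noncoding RNA locus LINC00662. Its 48 tested regions were all negative, 6 were called, and the median was −2.61 without combo replicate 3 and −2.88 with it. Over its 34 regions tested with all libraries, DTP libraries had 250, 525 and 622 CPM. Combo libraries had 39.6, 173 and 19.9 CPM there and DMSO libraries 12.3 to 13.3 CPM. The called region with the largest change in this run (chr19:27718543-27719044, in an intron of LINC00662) had 95, 78 and 107 counts in DTP and 7, 12 and 3 in combo. Its log2 fold change was −3.47 (SE 0.62) with all libraries and −3.29 (SE 0.58, edgeR quasi-likelihood adjusted p = 0.0387) without combo replicate 3.

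The run on chromosome 1, at chr1:228527928-228556601, was assigned to BTNL10, a butyrophilin-like gene, and held RNA5SP19, a 5S ribosomal RNA pseudogene. All 19 of its regions were negative in both fits, 10 were called, and in 17 the combo libraries lay below all DTP libraries. Summed signal was 224, 409 and 404 CPM in DTP and 43.8, 120 and 27.6 CPM in combo, and DMSO libraries held 45.2, 137 and 86.2 CPM. Its leading region (chr1:228531325-228531826) had 128, 131 and 263 counts in DTP and 10, 15 and 2 in combo. This was the largest fall among the named regions with all libraries, a log2 fold change of −4.12 (SE 0.67, unadjusted p = 7.33e-06, adjusted p = 0.289 by edgeR). Sequence near centromeres and in ribosomal RNA genes is repeated, and whether reads with several matches were kept in the deposited counts is not given in the sources used here.

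Falls at shorter runs lay at single genes of chromosome 19. All 4 regions at BCAM, a laminin receptor on the cell surface (chr19:44811908-44816778), were called. They held 20.7, 66.1 and 44.5 CPM in DTP, 3.11 and 5.58 CPM in combo replicates 1 and 2, and 25.1 CPM in combo replicate 3, which was within the DTP range. At ZNF730, a zinc finger gene (chr19:23098498-23102142), 3 of 4 regions were called and all 4 separated the groups, with 42.1, 23.2 and 37.4 CPM in DTP and 6.01, 5.47 and 4.45 CPM in combo. DMSO libraries had 88.5 to 203 CPM at ZNF730, so that signal went from DMSO through DTP to combo in 1 direction, unlike the runs near centromeres. A further run on chromosome 22, at chr22:50481772-50531475 (TYMP, ODF3B and ADM2), had 3 called regions of 20, with a median of −1.25 without combo replicate 3 and 0.05 with it.

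Rises formed 6 runs, each with combo replicates 1 and 2 high and combo replicate 3 nearer to DTP. At chr3:98976333-98985982, assigned to DCBLD2, a transmembrane receptor known to be phosphorylated by EGFR, 4 of 9 regions were called. The run overlaps no RefSeq gene but LINC00973. Its called region at chr3:98985481-98985982 had a distance of −83786 bp to the assigned start site. Signal was 38.3, 26.9 and 29.7 CPM in DTP, 154 and 131 CPM in combo replicates 1 and 2, and 30.0 CPM in combo replicate 3. DMSO libraries held 116 to 180 CPM. Combo replicates 1 and 2 were thus within the DMSO range, and combo replicate 3 within the DTP range. At PHLDA1, a gene transcribed downstream of MAPK signaling (chr12:76025479-76029568, 3 of 3 regions called), signal was 5.35, 1.95 and 6.85 CPM in DTP, 30.8, 26.8 and 7.54 CPM in combo, and 25.5 to 34.8 CPM in DMSO. The order was the same, with combo replicate 3 just above the DTP libraries.

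At the other 4 runs of rises, combo replicates 1 and 2 exceeded both DTP and DMSO. Near MMP12, which encodes a macrophage elastase (chr11:102877920-102912813, 3 of 5 regions called), DTP libraries had 4.45 to 5.35 CPM, DMSO libraries 3.42 to 4.53 CPM, and combo libraries 33.4, 35.0 and 11.4 CPM. All 3 combo libraries exceeded all DTP libraries at MMP12. They also did at RBMS3, which encodes an RNA-binding protein (chr3:29285334-29324926, 3 of 5 called), with 13.5 to 18.2 CPM in DTP and 91.5, 77.1 and 30.3 CPM in combo. At LINC01214 (chr3:150295200-150299904) and LOC102606465 (chr1:101128700-101204950), combo replicate 3 was at 6.38 and 13.1 CPM, within or below the DTP ranges of 3.06 to 11.2 and 15.3 to 26.6 CPM.

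**Figure D2:**
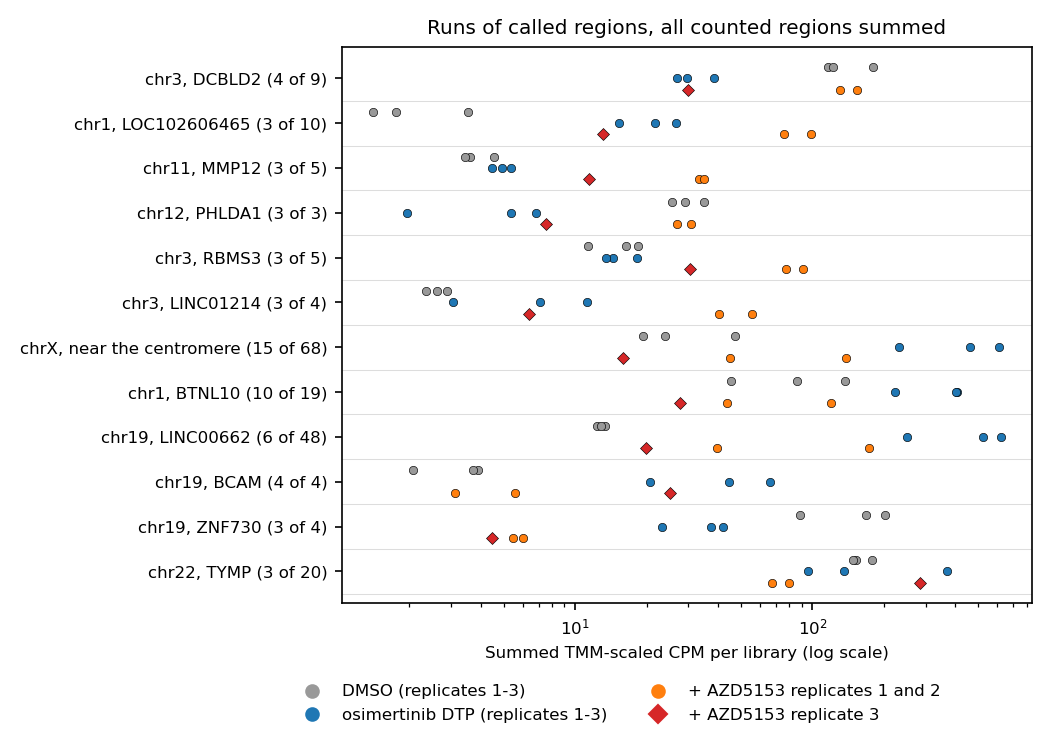
Points give the summed TMM-scaled CPM of each library (x axis, log scale) over each run of called regions. Sums take the regions of a run that were tested with all libraries. The y axis gives the chromosome, the assigned gene and the number of called among tested regions. In the runs near the centromeres of chromosomes X and 19 and at BTNL10 all 3 combo libraries lie below all 3 DTP libraries, whereas at DCBLD2 combo replicate 3 (diamond, 30.0 CPM) lies among the DTP libraries.

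Of the 95 lower regions, 26 lay on chromosome 19 (0.323% of its 8043 tested regions) and 18 on the X chromosome (0.402% of 4483, with 15 of the 18 in the run near the centromere), beside 0.0587% of all regions. Chromosome 22 held 9 lower regions (0.204% of 4408). Chromosome 19 as a whole had a median log2 fold change of −0.93 without combo replicate 3, beside −0.17 for all regions, and of 0.02 with all libraries. Without combo replicate 3, chromosomes 22, 16 and 17 also had low medians, of −0.64, −0.61 and −0.51. Among the 12 annotated falls of largest log2 fold change, 6 lay on chromosome 19, and 4 of these were assigned to zinc finger genes or their antisense RNA. The promoter region of ZNF699 (chr19:9305996-9306497) had 120, 54 and 44 counts in DTP and 9, 5 and 3 in combo, with a log2 fold change of −3.46 (SE 0.63) with all libraries. An intronic region of ZNF582 (chr19:56385263-56385764) had 36, 31 and 65 counts in DTP and 5, 3 and 2 in combo, and changed by −3.47 (SE 0.65). A distal region assigned to ZNF433-AS1 (chr19:11982686-11983187) had 98, 54 and 78 counts in DTP and 6, 15 and 5 in combo. In each of these, every combo library was below every DTP library. The zinc finger genes of chromosome 19 are a large family of DNA-binding repressors with similar sequences, so that reads may be shared among copies.

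Falls at other genes were as large. CHD1L, a chromatin remodeler of DNA repair, had 110, 39 and 67 counts in DTP and 8, 11 and 0 in combo at an intronic region (chr1:147292403-147292904), a log2 fold change of −3.33 (SE 0.74) with all libraries and −2.86 (SE 0.57) without combo replicate 3. An intronic region of CELSR1, a cadherin of planar cell polarity, fell by 3.38 on the log2 scale with all libraries and by 3.42 without combo replicate 3. PXDN, which crosslinks collagen of the basement membrane, had 31, 49 and 77 counts in DTP and 4, 5 and 10 in combo (chr2:1657996-1658497), and its value of −2.67 with all libraries became −3.55 without combo replicate 3. At ONECUT3, a transcription factor gene, DTP replicate 2 with 367 counts stood well above DTP replicates 1 and 3 with 60 and 113, and combo libraries had 15, 18 and 23 counts.

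Among the 12 annotated rises of largest change, 6 had all 3 combo libraries above all 3 DTP libraries, namely RAD18, GTF2I, KIFC3, RBMS3, CCBE1 and SLC38A9. The choice of the 12 used combo replicate 3, and 26 of all 103 higher regions and 2.83% of all regions had this pattern. At an intronic region of RAD18, a ubiquitin ligase of DNA damage tolerance (chr3:8882375-8882876), signal was 0.765, 1.25 and 1.21 CPM in DTP and 10.1, 9.31 and 3.09 CPM in combo, with a log2 fold change of 2.81 (SE 0.63) with all libraries and 3.17 (SE 0.51) without combo replicate 3. A region upstream of GTF2I, a general transcription factor gene with near-identical copies nearby that may share its reads (chr7:74627839-74628340), had 2.01, 1.95 and 2.42 CPM in DTP and 8.92, 15.9 and 10.6 CPM in combo. At RBMS3 (chr3:29285334-29285835) the values were 8.03, 5.43 and 4.63 CPM in DTP and 34.0, 26.1 and 20.9 CPM in combo. At these 3 regions combo replicate 3 was above every DTP library. At RAD18 this rested on few reads, as combo replicate 3 had 16 counts, DTP libraries 8, 9 and 12, and the pooled input 17.

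Elsewhere combo replicate 3 did not rise. At PDHX, a subunit of the pyruvate dehydrogenase complex (chr11:34994959-34995460), DTP libraries had 1.72, 1.53 and 1.51 CPM, combo replicates 1 and 2 had 11.7 and 9.42 CPM, and combo replicate 3 had 0.387 CPM. A region near PDK4, the kinase that switches off that complex, had 13.9, 9.77 and 2.13 CPM in combo and 1.05 to 2.72 CPM in DTP. At the region of PHLDA1 with the smallest p, combo replicate 3 had 1 count, against 9, 5 and 8 in DTP and 59 and 35 in combo replicates 1 and 2.

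**Figure D3:**
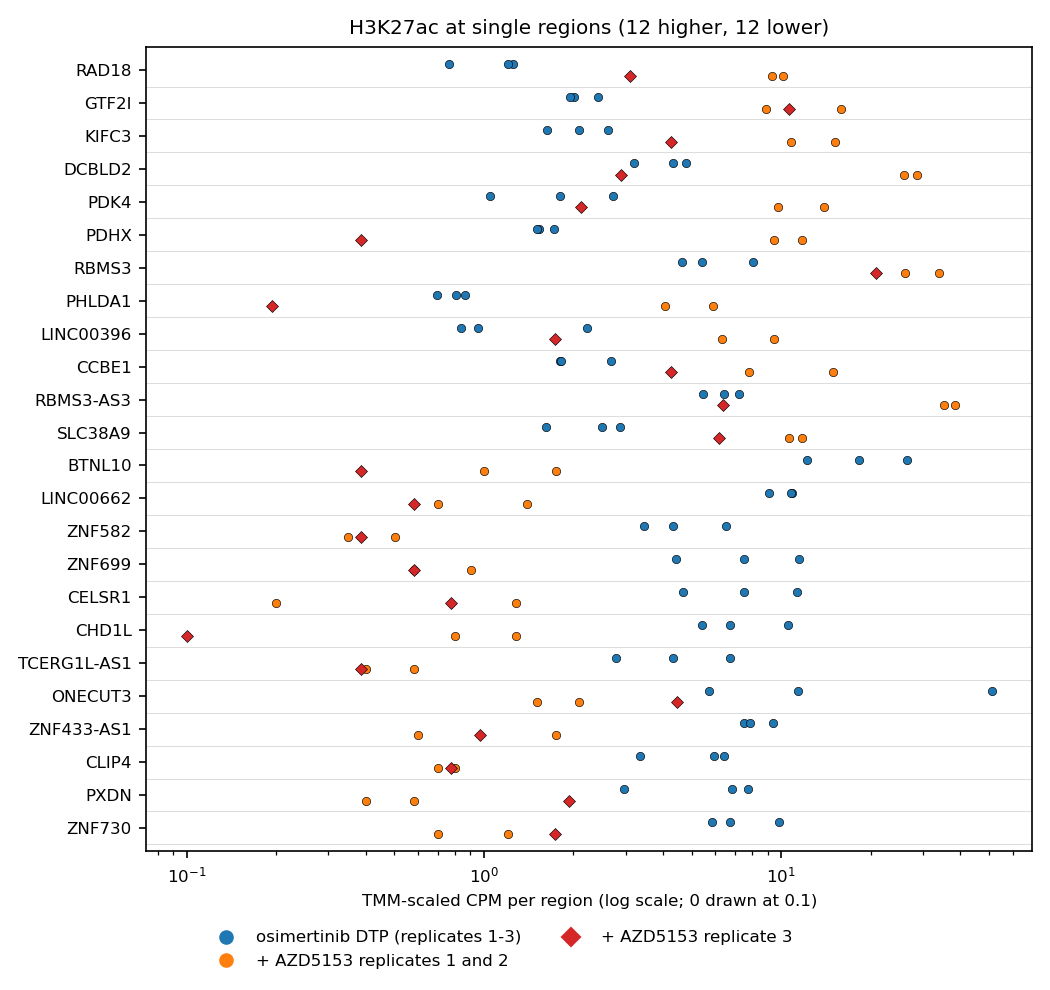
Points give the TMM-scaled CPM of single libraries (x axis, log scale, with 0 drawn at 0.1) for the 12 annotated regions with the largest rises (top) and the 12 with the largest falls (bottom), named by the assigned gene (y axis). In the falls the diamonds of combo replicate 3 lie with the other combo libraries, and in several of the rises, such as PDHX at 0.387 CPM, they lie at or below the DTP libraries. The choice of these regions used combo replicate 3, and 59 of all 95 lower regions separated the groups.

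Promoters and distal intergenic regions both held more falls than rises, beside 103 rises and 95 falls over all 161758 regions. Promoter regions at 1 to 3 kb (6548) had 1 rise and 7 falls. Of 24296 regions within 1 kb of a TSS, 25 were called lower and 2 higher without combo replicate 3, and the class median was −0.34 there and 0.08 with all libraries. Intronic regions (21266) had 12 rises and 11 falls, with medians of 0.27 and 0.07, and distal intergenic regions (11561) had 4 rises and 17 falls, with medians of 0.21 and 0.07. Of the 94371 regions with no annotation, 78 were called higher and 29 lower. The share of annotated counts at promoters was 48.8% ± 9.89 (SD, n = 3) in DTP and 49.7% ± 14.7 (SD, n = 3) in combo (exact permutation p = 0.9, two-sided), or 41.3% ± 1.32 (SD, n = 2) without combo replicate 3 (exact permutation p = 0.4). With 3 against 3 libraries the smallest p this test can give is 0.1, and with 2 against 3 it is 0.2.

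Promoter sequences that called regions reached in part are given for CTDSP1, a phosphatase of RNA polymerase II, and FLNA, the actin crosslinker filamin A, and beside them HEXIM1, an inhibitor of P-TEFb whose transcript is known to rise under BET inhibitors. Each line holds the 250 bases before a RefSeq start site (GRCh38.p14), 5′ to 3′ on the strand of the gene, with matches to the CCAAT box (CCAAT, either strand) in capitals. They lie at chr2:218399096-218399345 (plus strand), chrX:154374635-154374884 (minus strand) and chr17:45148225-45148474 (plus strand).
CTDSP1: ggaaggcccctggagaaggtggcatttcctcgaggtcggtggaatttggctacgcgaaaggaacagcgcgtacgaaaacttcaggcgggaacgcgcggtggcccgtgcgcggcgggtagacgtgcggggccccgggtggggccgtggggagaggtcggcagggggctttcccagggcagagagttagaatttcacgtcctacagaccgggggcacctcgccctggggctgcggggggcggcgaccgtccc
FLNA: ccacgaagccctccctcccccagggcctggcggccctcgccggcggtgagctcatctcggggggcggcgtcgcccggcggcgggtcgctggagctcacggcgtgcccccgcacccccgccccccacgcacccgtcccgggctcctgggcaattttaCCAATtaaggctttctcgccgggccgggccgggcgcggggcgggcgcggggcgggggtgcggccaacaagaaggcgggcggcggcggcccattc
HEXIM1: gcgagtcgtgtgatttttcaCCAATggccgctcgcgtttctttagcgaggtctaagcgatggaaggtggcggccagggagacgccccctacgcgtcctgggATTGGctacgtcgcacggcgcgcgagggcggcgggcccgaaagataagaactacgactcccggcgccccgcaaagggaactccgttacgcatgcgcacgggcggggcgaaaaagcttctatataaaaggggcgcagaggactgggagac
The regions described next cover 87, 81 and 76 of the 250 bases, so that most of each stretch lies outside them. The stretch of CTDSP1 holds no CCAAT box, that of FLNA 1 and that of HEXIM1 2, and 32.0% of 35116 such stretches hold at least 1. None of the 3 holds the AP-1 motif TGANTCA, which 6.57% of all stretches hold, or the TEAD motif GGAATG, which 11.9% hold. Their GC content is 68.8%, 78.4% and 62.4%.

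The region over the CTDSP1 stretch (chr2:218398681-218399182) had 266, 419 and 200 counts in DTP and 28, 20 and 87 in combo. Its log2 fold change was −3.75 without combo replicate 3 (edgeR quasi-likelihood adjusted p = 0.0281) and −2.27 with all libraries (unadjusted p = 0.00513). That over the FLNA stretch (chrX:154374804-154375305) had 116, 168 and 94 counts in DTP and 18, 9 and 52 in combo, with values of −3.34 (adjusted p = 0.0387) and −1.80. After scaling, all combo libraries lay below DTP at CTDSP1, where combo replicate 3 had 16.8 CPM and the DTP libraries 20.1 to 58.3 CPM. At FLNA combo replicate 3, with 10.1 CPM, was inside the DTP range of 9.47 to 23.4 CPM. The region over the HEXIM1 stretch (chr17:45147799-45148300) had 335, 310 and 269 counts in DTP and 516, 526 and 154 in combo, and did not pass the test (0.73 without combo replicate 3, adjusted p = 0.332, and 0.48 with it).

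Counts were next summed over all annotated regions of a gene. With all libraries, 0 of 15633 genes passed edgeR's test (959 had an unadjusted p under 0.05, and DESeq2 called 48 higher and 62 lower). Without combo replicate 3, 14 genes were higher (0.0896%) and 38 lower (0.243%). Of the 14, all 14 were positive with all libraries and 7 had all combo above all DTP libraries, as had 5.06% of all genes. Of the 38, all 38 were negative with all libraries and 24 had all combo below all DTP libraries, as had 4.06% of all genes. The calls had used the DTP libraries and the combo libraries other than combo replicate 3. Only combo replicate 3 was thus free to differ in these counts of the 14 and the 38. The signs and much of the separation were set by the calls, so that the shares of all genes are not a like baseline. Combo replicate 3 lay above the DTP mean in 8 of the 14 (57.1%, against 48.4% of all genes) and below it in 32 of the 38 (84.2%, against 51.6%). With the DMSO libraries left out of the fit, no gene passed. Leaving out a second library gave 0 to 669 rises and 0 to 671 falls, the most without DTP replicate 3 and at most 1 without any 1 of the combo or DMSO libraries or DTP replicate 1.

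ORMDL3, a regulator of sphingolipid synthesis in the endoplasmic reticulum, had 71.3, 60.1 and 75.7 CPM in DTP and 28.6, 29.0 and 34.5 CPM in combo. All combo libraries were below all DTP libraries, and the log2 fold change was −1.17 (SE 0.20) with all libraries and −1.25 (SE 0.20, edgeR adjusted p = 0.0440) without combo replicate 3. ODF3B, a relative of a sperm tail fiber gene, had the smallest adjusted p (0.0140, edgeR). Its signal was 36.7, 41.2 and 32.3 CPM in DTP and 5.68, 3.74 and 17.1 CPM in combo. PPFIA3, a scaffold protein of the liprin family, had 32.8, 59.5 and 58.2 CPM in DTP and 7.63, 10.9 and 18.01 CPM in combo, a log2 fold change of −2.05 (SE 0.37) with all libraries.

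CBLC, a ubiquitin ligase that can act on EGFR, had 43.2, 29.4 and 46.8 CPM in DTP, 10.95, 11.2 and 21.3 CPM in combo, and 117 to 186 CPM in DMSO. ANKRD13B, a ubiquitin-binding protein of endocytosis, had 46.0, 55.7 and 47.0 CPM in DTP and 19.7, 12.7 and 29.3 CPM in combo. EFNA2, the ephrin ligand A2, was measured by a single region with 12.1, 15.0 and 12.1 CPM in DTP and 1.39, 1.79 and 5.20 CPM in combo. Its log2 fold change was −2.24 (SE 0.52) with all libraries and −3.01 (SE 0.41) without combo replicate 3. In all 3 genes the groups did not overlap on the scale of gene sums. The other named falls were SYCE1L, ACBD3-AS1, an antisense RNA, GPIHBP1, which anchors lipoprotein lipase, and NAGS, the enzyme that starts the urea cycle. Their log2 fold changes with all libraries ran from −1.43 at NAGS to −1.08 at SYCE1L, and all 4 separated the groups on that scale. With counts scaled to distal regions alone, as for the enhancers below, the groups overlapped at EFNA2 and ACBD3-AS1. Combo replicate 3 then had 29.5 and 145 CPM, against 20.1 to 51.5 and 82.6 to 167 CPM in DTP. The log2 fold changes with all libraries were then −1.67 and −0.85.

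JUNB, a subunit of AP-1, was the only gene of the lists described later that passed the gene test. It had 117, 123 and 109 CPM in DTP and 43.1, 57.1 and 102 CPM in combo, so that combo replicate 3 came close to DTP. The log2 fold change was −1.20 (SE 0.20, edgeR adjusted p = 0.0474) without combo replicate 3 and −0.80 (SE 0.30) with it. Promoter GC content moved with the falls: deviations from the mean of all libraries correlated across 8799 genes with promoter GC content at r = −0.29 and −0.34 in combo replicates 1 and 2, 0.42 in combo replicate 3, and −0.05, 0.34 and −0.18 in DTP replicates 1 to 3. The 31 lower genes with a matched promoter had a median GC content of 66.8%, against 64.7% for all 8799. With a loess offset against GC content, 32 of the 36 called genes that could be refitted were still called. That fit summed promoter regions alone and called 104 higher and 179 lower of 8799 genes. Promoter sums without the offset called 75 and 182 of 12295. The part of GC content in the calls was not tested.

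The rises were led by COL26A1, a collagen gene, with 68.5, 89.0 and 122 CPM in DTP and 247.3, 251.2 and 207 CPM in combo, from 13 regions and none at a promoter. All combo libraries were well above DTP, and the log2 fold change was 1.34 (SE 0.24) with all libraries and 1.44 (SE 0.24, edgeR adjusted p = 0.0494) without combo replicate 3. MATN2, an extracellular matrix protein, had 36.0, 31.1 and 35.6 CPM in DTP and 88.9, 78.6 and 47.3 CPM in combo. SNRNP48, a protein of the minor spliceosome, had 29.2, 30.6 and 26.1 CPM in DTP and 64.3, 71.3 and 47.5 CPM in combo. The rise at SNRNP48 lay outside the promoter, as its promoter regions alone gave −0.67 without combo replicate 3 and −0.10 with it. At its enhancer of 2 regions (chr6:7617919-7619040) counts were 109, 93 and 93 in DTP and 390, 424 and 113 in combo.

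In the other rises combo replicate 3 was near the DTP libraries. NYAP1, an adaptor of PI3-kinase in neurons, had 15.9, 17.8 and 21.6 CPM in DTP and 74.3, 78.4 and 23.6 CPM in combo, and was the largest named rise with a log2 fold change of 2.07 (SE 0.23) without combo replicate 3 and 1.68 (SE 0.42) with it. SHH, the hedgehog ligand, had 24.1, 20.9 and 32.8 CPM in DTP and 84.4, 69.2 and 30.4 CPM in combo. SYN2, a synaptic vesicle protein, PXYLP1, a phosphatase of proteoglycan synthesis, and MIR3910-1, a microRNA gene, had combo replicate 3 just above all DTP libraries, at 64.2, 119 and 21.5 CPM. DCANP1 and MAP1LC3B2, which encodes an autophagy protein and has a close copy in MAP1LC3B, had combo replicate 3 inside the DTP range.

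**Figure D4:**
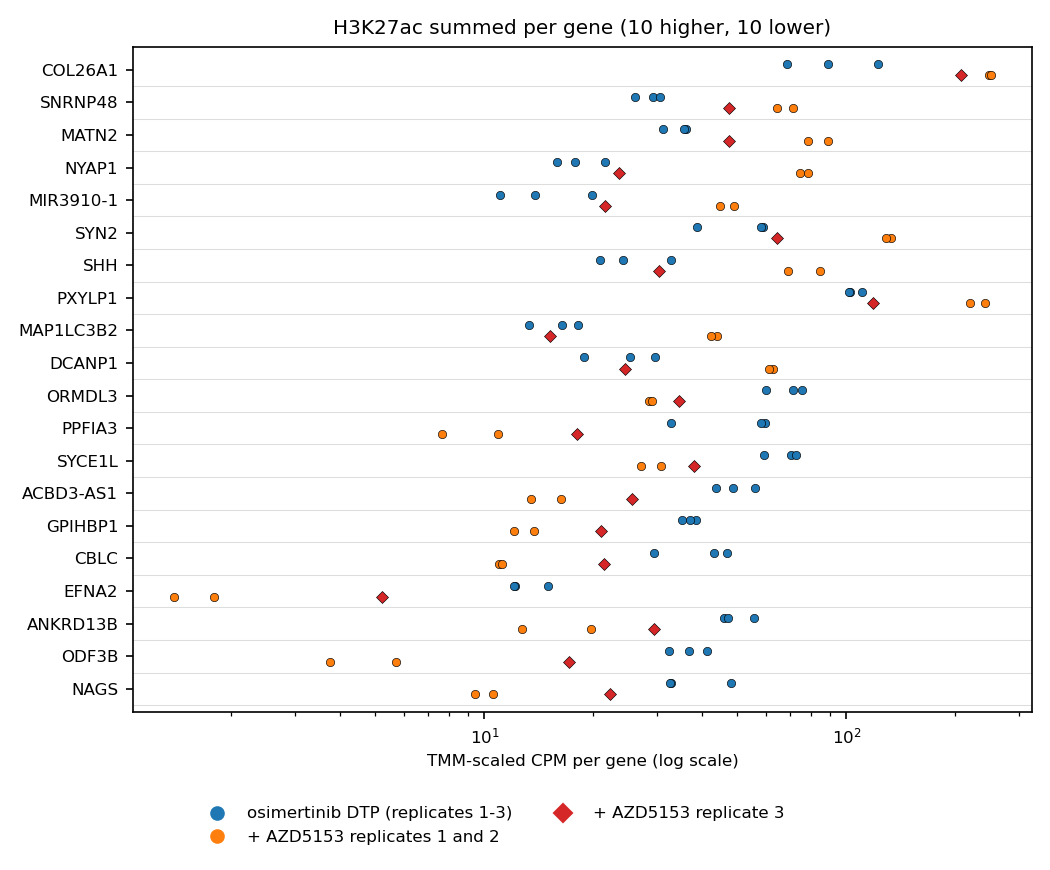
Points give the TMM-scaled CPM of single libraries (x axis, log scale), summed over all annotated regions of a gene (y axis), for the 10 rises and 10 falls of smallest p with all libraries. In the 10 falls all combo libraries lie below all DTP libraries, as in 24 of all 38 lower genes, and the choice of the 10 used combo replicate 3. In the rises combo replicate 3 (diamond) lies clear of the DTP libraries at COL26A1 (207 CPM against 68.5 to 122 CPM) but inside their range at SHH.

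Enhancers were built by joining annotated regions over 2.5 kb from a TSS within 10 kb, which gave 14006, of which 840 were super-enhancers by their summed signal. With all libraries 0 passed edgeR's test (1790 had an unadjusted p under 0.05, and DESeq2 called 212 higher and 240 lower), and without combo replicate 3, 14 were higher (0.1%) and 37 lower (0.264%). With a loess offset the split was 78 higher and 117 lower, and leaving out any second library left at most 1 call. Combo replicate 3 lay above the DTP mean in 13 of the 14 (92.9%, against 46.2% of all enhancers) and below it in 27 of the 37 (73.0%, against 53.8%). Enhancer signals were scaled to the counts of distal regions alone, which were 27.9% of annotated counts in combo replicate 3 and 35.1% to 53.5% in the other 5 libraries. Groups did not overlap, with combo above, in 1083 enhancers (7.73%), and with combo below, in 1280 (9.14%). Among super-enhancers the counts were 101 and 20, and the median log2 fold change was 0.29 with all libraries and 0.06 without combo replicate 3, beside 0.07 and −0.01 for all enhancers. These values hold on the scale of distal regions. The share of annotated counts in super-enhancers was 14.6% ± 2.81 (SD, n = 3) in DTP and 14.9% ± 3.57 (SD, n = 3) in combo (exact permutation p = 0.9). In combo replicate 3 the share was 10.8%, against 11.5% to 16.9% in DTP.

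Of the super-enhancers, 1 rose and 5 fell without combo replicate 3. The rise was that assigned to DCBLD2 (chr3:98962202-98985982, 16 regions), which takes in the run over LINC00973, with 169, 128 and 126 CPM in DTP and 511, 408 and 201 CPM in combo. On this scale all combo libraries exceeded DTP, and the log2 fold change was 1.41 (SE 0.35) with all libraries and 1.73 (SE 0.21, edgeR adjusted p = 0.0326) without combo replicate 3. Of the falls, BTNL10 (−2.51, SE 0.43, with all libraries) is the run described above. KPNA7, a gene of nuclear import (chr7:99192615-99211918, 11 regions), had 170, 141 and 176 CPM in DTP and 60.7, 62.6 and 69.5 CPM in combo, a log2 fold change of −1.34 (SE 0.28) with all libraries and −1.37 (SE 0.25) without combo replicate 3, so that all combo libraries agreed closely. The super-enhancers of CELSR1, MNT, which encodes a partner of MAX that opposes MYC, and LINC02255 were called lower without combo replicate 3. On the scale of distal regions, combo replicate 3 exceeded every DTP library there, at 210, 358 and 353 CPM. Its counts before scaling were 199, 340 and 335, against 391 to 571, 748 to 904 and 601 to 762 in DTP. It thus lay above DTP only once scaled.

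Among smaller enhancers called higher, a distal region of MMP12 (chr11:102911532-102912033) had 4, 6 and 11 counts in DTP and 41, 62 and 25 in combo. That of SHROOM3, a gene of epithelial shape (chr4:76526291-76536267), had 71, 105 and 104 counts in DTP and 460, 381 and 78 in combo, or 20.1, 39.4 and 29.8 CPM against 112, 94.7 and 82.2 CPM on the scale of distal regions. At SHROOM3 the 78 counts of combo replicate 3 lay within the DTP range before scaling, but its library was shallower. Total counts were 6263443 in combo replicate 3 and 8850409 to 9265614 in DTP. The log2 fold changes of MMP12 and SHROOM3 with all libraries were 2.90 and 1.69. ROR1, a receptor tyrosine kinase gene, had an enhancer (chr1:63794645-63795714) with 84, 65 and 81 counts in DTP and 284, 322 and 38 in combo. Its log2 fold change was 1.41 with all libraries. Combo replicate 3 exceeded DTP there only once scaled (40.0 CPM against 23.2 to 24.4 CPM). These enhancers were chosen for mention after their values were seen.

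Gene lists were described by their counts and medians, beside a median over all genes of 0.03 with all libraries and 0.01 without combo replicate 3. Apart from JUNB, no member of the 21 lists passed the gene test in either fit. Of the transcripts that BET inhibitors are known to lower, 7 of 9 with regions had positive values without combo replicate 3 and the median was 0.41 (0.32 with all libraries). BCL2, an inhibitor of apoptosis, had 29.8, 15.4 and 22.8 CPM in DTP and 62.2, 49.2 and 38.8 CPM in combo, with no overlap, and a log2 fold change of 1.15 (SE 0.48) with all libraries (adjusted p = 0.150 by edgeR without combo replicate 3). MYC, the growth regulator most often named as a BET target, had 586, 424 and 587 CPM in DTP and 594, 606 and 795 CPM in combo. Its log2 fold change was 0.32 (SE 0.24) with all libraries and 0.19 (SE 0.25) without combo replicate 3, and turned to −0.20 with a loess offset. FOSL1 and CCND1 also had all combo above all DTP libraries, with values of 0.56 (SE 0.20) and 0.81 (SE 0.31) with all libraries.

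Of the 7 transcripts that BET inhibitors are known to raise, 1 was positive with all libraries and 4 without combo replicate 3, with medians of −0.22 and 0.03. HEXIM1 had 140, 109 and 130 CPM in DTP and 154, 131 and 121 CPM in combo, a log2 fold change of 0.10 (SE 0.19) with all libraries, and the groups overlapped. SERPINI1, a serpin gene used as a marker of BET inhibition, had 23.5, 39.4 and 25.0 CPM in DTP and 21.6, 20.8 and 33.2 CPM in combo, a value of −0.22 (SE 0.30). Among BET proteins and the control of P-TEFb, 11 of 12 genes had regions (BRD2 had none) and the median was 0.03 in both fits. These values are H3K27ac at the genes and not transcript levels.

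MAPK output genes had the highest list median with all libraries, 0.49, with 8 of 10 positive, and 0.23 without combo replicate 3. DUSP4, a phosphatase induced by ERK signaling, had 67.6, 62.9 and 35.6 CPM in DTP and 102, 97.6 and 110 CPM in combo, a log2 fold change of 0.90 (SE 0.25) with all libraries and 0.86 (SE 0.26) without combo replicate 3. PHLDA1 was higher in combo replicates 1 and 2 only, with 523, 501 and 223 CPM in combo against 225, 174 and 312 CPM in DTP. SPRY2, a feedback inhibitor of receptor tyrosine kinases, CCND1 and EPHA2, an ephrin receptor gene (0.56, SE 0.27, with all libraries), also separated the groups upward. DUSP6 and ETV5, other outputs of the pathway, were at −0.28 (SE 0.42) and −0.36 (SE 0.28) with all libraries. Of the 90 regions of the list, 11 had all combo above all DTP libraries and 2 had all below, beside 2.83% and 5.4% of all regions.

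YAP and TAZ target genes were positive in 19 of 21 without combo replicate 3 and in 17 with all libraries, with medians of 0.40 and 0.20. Of their 372 regions, 2 were called higher, at RBMS3 and ASAP1 (0.0637% of all regions were), and 31 had all combo above and 11 all combo below DTP, beside 2.83% and 5.4% of all regions. AXL, a receptor kinase known in tolerance to EGFR inhibitors, had 79.7, 85.1 and 105 CPM in DTP and 154, 132 and 155 CPM in combo. Its log2 fold change was 0.71 (SE 0.19) with all libraries and 0.69 (SE 0.20, edgeR adjusted p = 0.109) without combo replicate 3, and the groups did not overlap. NUAK2, a kinase gene of the same list, separated the groups as well, with 196, 119 and 156 CPM in DTP and 256, 254 and 236 CPM in combo. CCN1 and ANKRD1, classical targets of YAP, were higher only in combo replicates 1 and 2, and combo replicate 3 had 254 and 116 CPM, below every DTP library.

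EGFR, the target of osimertinib, had 541, 405 and 688 CPM over 34 regions in DTP and 649, 715 and 449 CPM in combo. Its log2 fold change of 0.15 (SE 0.27) with all libraries and 0.34 (SE 0.27) without combo replicate 3 turned negative when promoter regions alone were summed, to −0.19 and −0.37. ERBB receptors and their ligands had medians of 0.04 with all libraries and 0.34 without combo replicate 3. Bypass receptor tyrosine kinases had 0.13 and 0.27, with AXL and PDGFRB (0.69, SE 0.45, with all libraries) above in all combo libraries. The epithelial-mesenchymal list had medians of 0.18 and 0.25, and TWIST1, a mesenchymal factor with the highest value in it (1.37, SE 0.37, without combo replicate 3), had 36.0, 38.7 and 3.34 CPM in combo against 8.63 to 21.9 CPM in DTP. VIM, the mesenchymal filament vimentin, had 70.6, 71.5 and 41.3 CPM in DTP and 111, 80.2 and 113 CPM in combo, without overlap (0.73, SE 0.43, with all libraries).

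Lists with negative medians without combo replicate 3 moved toward 0 or past it once combo replicate 3 was added. Lung lineage genes, 9 of 16 with regions, had −0.45 without combo replicate 3 and −0.08 with it, and SFTPD, which encodes a surfactant protein, had the lowest value in the list (−1.58, SE 0.57, and −0.97 with all libraries). SFTPB, another surfactant gene, had 8.24, 3.82 and 4.84 CPM in DTP and 3.47, 1.64 and 2.04 CPM in combo, without overlap. Genes of cholesterol and fatty acid synthesis had −0.25 and −0.12 in the same order. SCD, the desaturase of fatty acid synthesis, came nearest to the threshold (−1.30, SE 0.23, edgeR adjusted p = 0.0543), with 43.0, 35.8 and 29.7 CPM in DTP and 15.8, 13.3 and 37.1 CPM in combo. The BCL2 family had −0.26 and 0.09, housekeeping promoters −0.13 and 0.02, and AP-1 factors −0.08 and −0.01. Within the AP-1 list all combo libraries lay above DTP at FOS (0.18, SE 0.20) and FOSL1, and below it at JUNB, FOSB (−0.94, SE 0.40) and BATF3 (−0.56, SE 0.28), each with all libraries. Cell cycle genes were at −0.03 and 0.13, and CDKN1A, the CDK inhibitor p21, was at −1.09 (SE 0.22) without combo replicate 3 and −0.59 (SE 0.34) with it.

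The NF-kappaB list had medians of 0.04 with all libraries and 0.09 without combo replicate 3, with IL1B, a cytokine gene, at 1.48 (SE 0.36) and ICAM1, an adhesion molecule gene, at −1.33 (SE 0.32) without combo replicate 3. Interferon response genes had −0.06 and 0.08 in this order, and NRF2 and antioxidant genes had 0.23 and 0.26, with 11 of 13 positive with all libraries and 9 without combo replicate 3. GCLC, which makes the precursor of glutathione, had 54.1, 62.6 and 50.8 CPM in DTP and 103, 87.7 and 70.4 CPM in combo, with no overlap (0.64, SE 0.21, with all libraries). Medians of the 4 marker lists were −0.11, 0.05, 0.05 and 0.41 with all libraries for epithelial, haematopoietic, endothelial and fibroblast markers. MUC1, an epithelial mucin, was lower in all combo libraries, with 104, 108 and 114 CPM in DTP and 38.1, 83.2 and 64.2 CPM in combo.

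**Figure D5:**
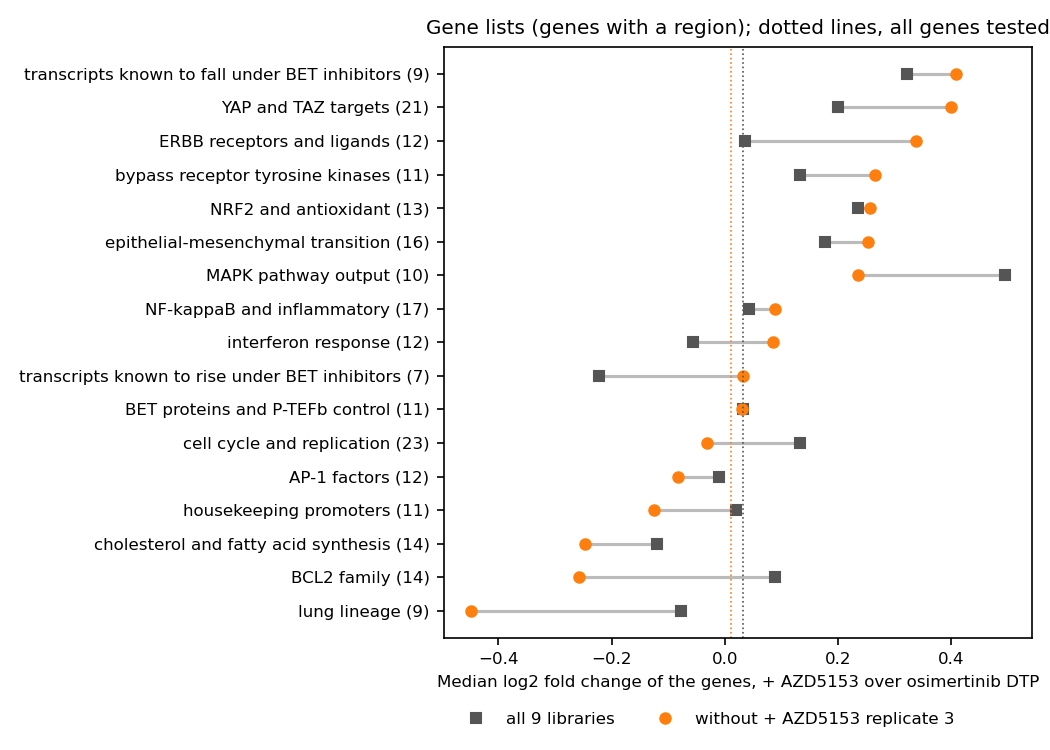
Medians of the log2 fold change of combo over DTP (x axis) are drawn for 17 gene lists (y axis, with the number of genes that had regions), with all libraries (squares) and without combo replicate 3 (circles), and dotted lines mark all genes tested at 0.03 and 0.01. MAPK output has the highest median with all libraries (0.49), and transcripts known to fall under BET inhibitors have the highest without combo replicate 3 (0.41).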

How the data were processed

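H3K27ac ChIP-seq counts of H1975 cells were analyzed for 6 libraries, with 3 DMSO libraries in the same fits. The submitters' processing notes name BWA 0.7.17, MACS2 2.2.6, featureCounts 2.0.0, ChIPseeker 1.29.1 and hg38. The authors deposited raw counts per region, with no normalization, a second count table with annotation (equal counts in all 67387 regions), and 1 peak list per library with fold enrichment as a ratio over background and p and q as −log10 values. The deposited peak lists were used for overlap with regions (at least 1 bp), never pooled. No H3K27ac count exceeded 1148, where 1 read per position and strand would allow 1152.

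Groups came from sample titles. Counts per region, gene (all annotated regions of a symbol) and enhancer were tested with edgeR 4.0.16 (R 4.3.3): filterByExpr at a minimum count of 10, TMM, glmQLFit with robust estimation, glmQLFTest, and Benjamini-Hochberg adjustment over all features at 0.05, in 1 fit of 9 libraries and 1 of 8 without combo replicate 3. CPM values are TMM-scaled over all 9 libraries, and sums over runs take the regions tested with all libraries. Alternatives were DESeq2 1.42.0, limma 3.58.1 (voom with quality weights), library size without TMM, a loess offset (span 0.3), no filter, only the groups compared, a replicate block, counts corrected for saturation, annotated regions or promoter regions alone, 2 kb stitching, and leaving out each library. An offset against promoter GC content, and the rule for runs of regions, were chosen after seeing the data. The scripts were tested on simulated data.

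The comparison and the gene lists were chosen with earlier results of these data known. Named regions were annotated, past the threshold without combo replicate 3, of the same direction with an unadjusted p under 0.05 with all libraries, had at least 20 counts in each DTP library (falls) or in combo replicates 1 and 2 (rises), and were the 12 of largest change in each direction. Named genes and super-enhancers were past the threshold in a fit and of the same direction in both, with the smallest p with all libraries (10 genes in each direction). Members of lists were those called, or else the highest and lowest. HEXIM1, SERPINI1, MYC, BRD2 and EGFR were always named, and 1 further gene is not reported here. Of 10601 protein-coding genes with a promoter region, 8799 (83.0%) matched a RefSeq promoter. Counts of 6263443 to 10064505 per library limit the precision of regions with few reads, and p-values measure the spread between cultures of 1 cell line.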

Additional observations from a re-analysis of the deposited data

How the results depend on the processing

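Counts of calls depended on the fit, and the causes were not tested except where fewer libraries or features entered. Counts are given as higher and lower in combo. With all libraries, where edgeR called 0 at regions, genes and enhancers, DESeq2 called 18 and 68 regions, 48 and 62 genes, and 212 and 240 enhancers, and voom with quality weights 2965 and 2824, 100 and 152, and 35 and 73. Stitching within 2 kb gave 3 lower enhancers. Without combo replicate 3 (103 and 95 regions, 14 and 38 genes, 14 and 37 enhancers), DESeq2 called 2744 and 1409 regions, 590 and 791 genes, and 542 and 750 enhancers, and voom 3370 and 1552, 537 and 448, and 2 and 1. A loess offset gave 1119 and 592 regions, 26 and 69 genes, and 78 and 117 enhancers, and library size without TMM gave 14 and 45 regions and 29 and 126 genes. Without the filter 44 and 43 regions were called, among annotated regions alone 0 and 1, and after correction for saturation 98 and 56 regions and 7 and 25 genes. Promoter regions alone gave 75 and 182 genes, and the offset against GC content, chosen after seeing the data, 104 and 179. With only the compared groups in the fit, 0 regions, genes and enhancers were called in either direction. Scaling moved the median over all regions without combo replicate 3 from −0.17 to −0.04 (loess) and −0.26 (no TMM), and that of all genes to −0.17 without TMM.

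Leaving out single libraries changed most counts. With all libraries the counts ranged over 0 to 103 and 0 to 95 regions, 0 to 14 and 0 to 38 genes, and 0 to 14 and 0 to 37 enhancers, and the upper ends came from leaving out combo replicate 3 and every other count was 0. When a second library was left out beside combo replicate 3, the counts ranged over 0 to 1828 and 0 to 1587 regions, 0 to 669 and 0 to 671 genes, and 0 to 1 and 0 to 0 enhancers. Without DTP replicate 2 there were the highest region counts and 15 and 47 genes. Without DTP replicate 3 there were 364 and 872 regions and the highest gene counts, without DTP replicate 1 147 and 689 regions, without combo replicate 2 34 and 27 regions, and without combo replicate 1 or any DMSO library 0 regions. The difference in promoter share ranged from −7.54 to 6.44 percentage points with all libraries (negative without combo replicate 3, DTP replicate 1 or DTP replicate 3) and from −11.6 to −2.04 without combo replicate 3. That in super-enhancer share ranged from −1.28 to 2.34 (negative without combo replicate 1, combo replicate 2 or DTP replicate 2) and from 0.779 to 3.50.

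Same-numbered DTP and combo libraries deviated together with r of 0.19, 0.05 and −0.21, and differently numbered ones with r of −0.33 to 0.25. With replicates 1 and 2 alone, r was 0.35 for the same number and −0.35 for different numbers. Whether same-numbered libraries belong together was not tested. With a replicate block and without combo replicate 3, the counts were 4766 and 4654 regions, 56 and 83 genes, and 478 and 633 enhancers.

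Over all alternatives, values of named regions, genes and enhancers kept their direction and side of the threshold in 1333 cases, lost the threshold in 412, gained it in 128 and reversed in 14. SNRNP48 reversed with promoter regions alone (−0.10 with all libraries, −0.67 without combo replicate 3) and with the GC offset (−0.062 and −0.98). EGFR reversed with all libraries for promoter regions (−0.19) and the GC offset (−0.21), and without combo replicate 3 for promoter regions (−0.37), the GC offset (−0.51) and the loess offset (−0.056). MYC reversed without combo replicate 3 with the loess offset (−0.20). Of the values with all libraries, leaving out 1 library moved EGFR from −0.019 (DTP replicate 2) to 0.35 (DTP replicate 3), the LINC02255 super-enhancer from −1.53 (combo replicate 3) to 0.021 (combo replicate 1), HEXIM1 from −0.010 (combo replicate 1) to 0.19 (combo replicate 3), and SERPINI1 from −0.45 (combo replicate 3) to 0.054 (DTP replicate 2). Totals of 6263443 to 10064505 counts limit regions with few reads, where combo replicate 3 was the shallowest.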
